A study of Mus musculus with 6 samples.

Results

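The epithelium of the first mandibular molar (M1) was described in unperturbed mice at postnatal day 2.5 (PN2.5), from the 3 control libraries among the 6 libraries of a series on the Wnt ligand gene Wnt10a. The control mice were Wnt10aflox/flox. They carried the floxed Wnt10a alleles without a Cre transgene, so the gene had not been recombined by design. The other 3 libraries came from K14-Cre;Wnt10aflox/flox mice, in which the Krt14 promoter drives Cre in epithelial cells, and they were not used here. Each control library was made from dental epithelium pooled from 4 M1 according to the design text, whereas the methods of the study give 1 more molar for each pool, and molars of mice of either sex entered the pools. The labels number the control libraries as biological replicates 1, 2 and 3, called pools 1, 2 and 3 below. The deposited values are TPM, in which the read count of a gene is divided by its length and scaled so that a library sums to a fixed total. Levels of different genes can therefore be set side by side. The depth of the libraries cannot be recovered from TPM, so the counting error of a value cannot be estimated. With a single group there was nothing to test, and errors are standard deviations over the 3 pools.

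A mouse molar at this age is still inside the jaw. Its enamel organ consists of an inner layer whose cells become ameloblasts, the stratum intermedium that lies against them, the loose stellate reticulum, the outer enamel epithelium and the cervical loops at the growing edge. Ameloblasts pass through a secretory stage, in which they lay down the enamel matrix proteins amelogenin, ameloblastin and enamelin, and later a maturation stage, in which the matrix is removed and mineral is added. The odontoblasts that secrete dentine, the dental papilla, the dental follicle and the alveolar bone are mesenchymal and lie next to the epithelium.

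The table listed 55487 genes. Between 20722 and 23203 of them were above 0 in a pool, 18497 in all 3, and 13776 had a mean of 1 TPM or more, of which 12255 were protein-coding. Expression was concentrated in few genes. The 10 highest genes of a pool took 29.97%, 30.1% and 31.4% of its summed TPM in pools 1, 2 and 3, and 50% of the TPM was held by 88, 95 and 70 genes. The 1000 highest genes held 76.9%, 74.2% and 80.2%. Only 4 genes had a mean of 10000 TPM or more, and 128 had a mean of 1000 TPM or more.

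Amelx, the X-linked gene for amelogenin, was the highest gene in every pool. Its level was 170792 TPM in pool 1, 163351 TPM in pool 2 and 203538 TPM in pool 3, or 18.1% ± 2.19 (SD, n = 3) of all TPM. No other gene came near it, and the highest pool exceeded the lowest 1.25-fold. Ambn, the gene for ameloblastin, was at 31405, 32180 and 33061 TPM, or 3.25% ± 0.0906 of the TPM. It was the steadier of the pair, with 1.05-fold between the highest and the lowest pool. Enam, the gene for enamelin, was at 3861, 4084 and 2301 TPM and ranked 26 by its mean. In pool 3 Amelx and Ambn were at their highest and Enam was at its lowest, so that the ratio of Ambn to Enam was 8.13, 7.88 and 14.4 in pools 1, 2 and 3, while the ratio of Amelx to Ambn was 5.44, 5.08 and 6.16. The longest transcript of Enam has 5483 bases, against 841 for Amelx and 1854 for Ambn. Long transcripts were low in pool 3 in general, as given below, and the part of length in these ratios was not tested. Together the 3 matrix genes took 20.7%, 20.1% and 24.1% of the TPM.

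**Figure D1:**
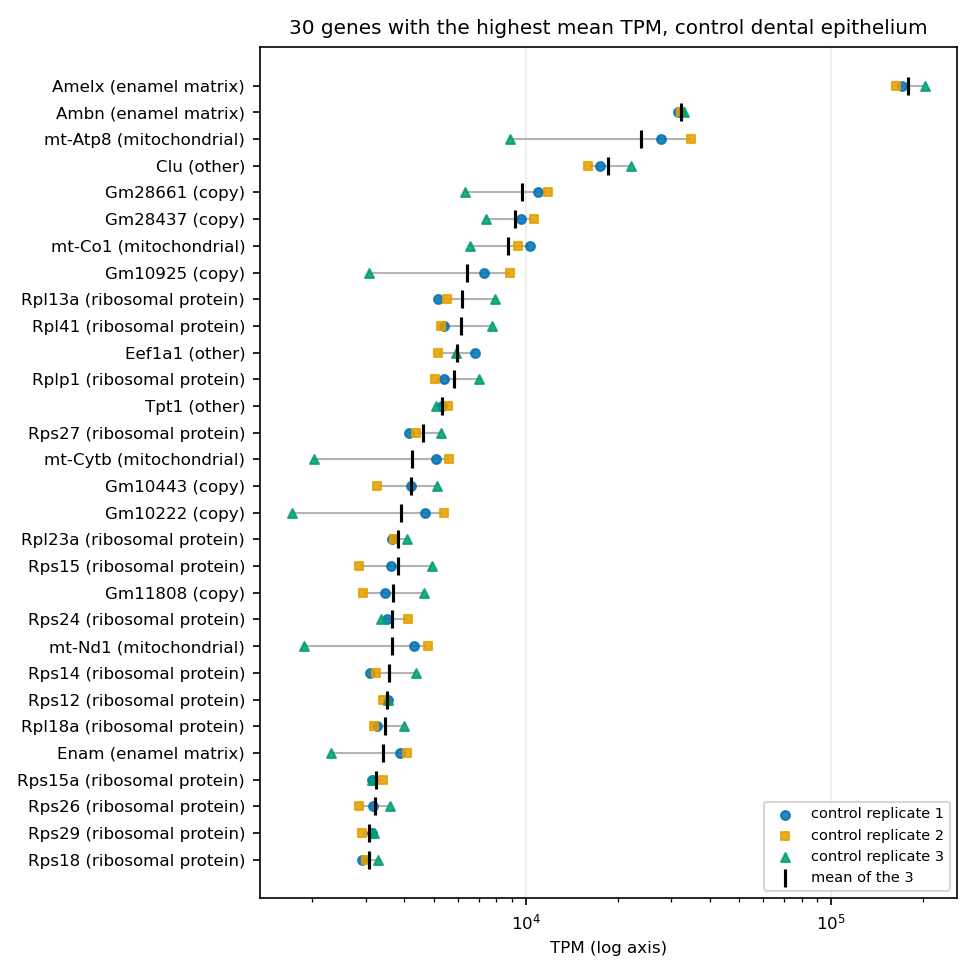
TPM of the 30 genes with the highest mean over the 3 control pools, on a log axis, with 1 symbol for each pool and a black bar at the mean. The class of each gene stands in brackets, where copy means a gene model that shares its sequence with another gene. Amelx stands apart at 163351 to 203538 TPM, and the mitochondrial genes and their copies are lowest in pool 3.

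Amelx lies on the minus strand of chromosome X (GRCm38, chrX:169176114-169187200), within the span of the gene Arhgap6 on the plus strand, with no exon of Arhgap6 in common. Arhgap6 itself was at 0.74, 1.26 and 0.43 TPM. All other X-linked genes together took 1.79%, 1.89% and 1.64% of the TPM. Ambn (chr5:88455991-88468531) and Enam (chr5:88487975-88506049) are neighbours on the plus strand of chromosome 5, in a run of secreted phosphoprotein genes that also holds the casein and salivary protein genes and the late ameloblast genes Odam and Amtn. Of the 19 protein-coding genes from Csn1s1 to Enam (chr5:87666208-88506049), 5 had a mean of 1 TPM or more, namely Odam, Csn3, Amtn, Ambn and Enam, and 13 were listed at 0 in all 3 pools, among them the caseins Csn1s1 and Csn2 and the salivary gene Smr2. Neighbours therefore differed by orders of magnitude, and Amtn, at 3.19, 3.48 and 3.37 TPM, sits directly before Ambn.

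The stretches before the starts of the 5 enamel genes are shown because these genes belong to a single family of secreted phosphoproteins and include the highest of the tissue. The sequences are from RefSeq on GRCm38.p6, 5′ to 3′ on the strand of the gene, and cover the 100 bases before the RefSeq start. Capitals mark CCAAT or its reverse complement ATTGG, and TATAAA or its reverse complement.
Amelx, chrX:169187210-169187309, minus strand: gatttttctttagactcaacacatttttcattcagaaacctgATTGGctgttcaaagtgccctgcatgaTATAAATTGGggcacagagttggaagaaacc
Ambn, chr5:88455891-88455990, plus strand: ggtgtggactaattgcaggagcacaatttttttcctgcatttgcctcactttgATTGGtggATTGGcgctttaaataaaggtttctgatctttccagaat
Enam, chr5:88487875-88487974, plus strand: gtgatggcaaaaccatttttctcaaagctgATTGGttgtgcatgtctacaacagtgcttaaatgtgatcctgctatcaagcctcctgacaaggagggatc
Odam, chr5:87884910-87885009, plus strand: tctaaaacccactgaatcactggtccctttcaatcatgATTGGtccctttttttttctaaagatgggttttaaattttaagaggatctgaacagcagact
Amtn, chr5:88376008-88376107, plus strand: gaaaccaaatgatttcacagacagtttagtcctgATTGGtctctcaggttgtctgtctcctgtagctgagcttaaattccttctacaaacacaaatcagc

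All 5 stretches held ATTGG, which with CCAAT occurred in 18.9% of 32851 promoter windows of the same length. In each of them an ATTGG was preceded by TG, and TGATTGG or its reverse complement, a search added after the sequences had been seen, occurred in 4.58% of the windows. This ATTGG began at position -58 in Amelx, -47 in Ambn, -70 in Enam, -62 in Odam and -66 in Amtn, counted from -1 at the base before the start. Amelx was alone among the 5 in holding TATAAA, at -31, where 5.56% of all windows held it on either strand. Its last base is also the first of another ATTGG. These matches describe the letters only. The 5 genes ranged from 3.35 to 179227 TPM in their means, so that the shared letters did not go with a shared level. Among related genes of bone and dentine, the window of Ibsp and 1 of 2 windows of Spp1 also held TGATTGG. The 2 windows of Dmp1 did not, and Dspp had no window to search. Outside this family, the windows of the enamel proteases Mmp20 and Klk4 and of the keratins Krt5 and Krt14 lacked it.

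Clu, the gene for the secreted chaperone clusterin, was the highest protein-coding gene outside the enamel matrix and the mitochondrial genome. It was at 17435, 16017 and 22159 TPM, or 1.87% ± 0.327 of the TPM. The next were genes of protein synthesis. Eef1a1, which brings aminoacyl-tRNA to the ribosome, was at 6830, 5156 and 5896 TPM, and Tpt1, a growth-related protein bound to the translation machinery, was at 5326, 5559 and 5092 TPM. The 97 cytosolic ribosomal protein genes took 15.1%, 14.2% and 18.3% of the TPM. Of these, 93 had a mean of 1 TPM or more, with a median of 1631 TPM, and the highest was Rpl13a at 5140, 5508 and 7949 TPM. Ribosomal protein genes filled 14 of the 30 highest places, and pool 3 had the largest share.

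The 13 protein-coding genes of the mitochondrial genome, all subunits of the respiratory chain or of ATP synthase, took 5.99%, 6.90% and 2.82% of the TPM. By fold this class varied most between pools, with pool 3 far below the other pools. The ATP synthase subunit gene mt-Atp8 was at 27805, 34742 and 8892 TPM. It is 204 bases long and shares its last 43 bases with mt-Atp6, so the reads of the 2 genes cannot be fully told apart. The cytochrome c oxidase gene mt-Co1, at 10315, 9418 and 6549 TPM, varied less than mt-Cytb, a subunit of complex III, at 5082, 5612 and 2025 TPM.

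A further 6 of the highest names are pseudogenes on chromosome 1 (chr1:24612407-24616197) that are copies of mitochondrial genes, with 99.7% to 100% identity over the aligned bases. The highest was Gm28661, the copy of mt-Co2, at 11003, 11848 and 6321 TPM, followed by Gm28437, the copy of mt-Co3, at 9622, 10598 and 7429 TPM. mt-Co2 itself was at 1602, 1648 and 301 TPM and mt-Co3 at 292, 374 and 954 TPM. Reads of such pairs cannot be assigned to a single locus, so the split between the 6 copies and their mitochondrial genes, mt-Co1 among them, is uncertain. The copies held 3.86%, 4.18% and 2.28% of the TPM and had their smallest share in pool 3. Of the 13 mitochondrial genes 11 were lowest in pool 3, while mt-Co3 and mt-Nd3 were highest there. Reads of Gm10443 and Rps28 cannot be fully told apart either, with 100% identity over 125 aligned bases of the 210 of Gm10443.

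Keratins marked the tissue as epithelium. Krt5 was at 3063, 2161 and 3713 TPM, its partner Krt14 at 2518, 2190 and 2773 TPM and Krt17, which was chosen after its values were seen, at 1442, 1054 and 1797 TPM. No other keratin gene among the 49 listed had a mean of 1000 TPM or more, and 9 had a mean of 10 TPM or more. The simple-epithelium keratins Krt8 and Krt18 stood at 11.2, 10.6 and 14.5 TPM and at 14.5, 9.84 and 11.4 TPM. All 3 leading keratins were lowest in pool 2 and highest in pool 3.

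All 13 members of the pan-epithelial list had a mean of 1 TPM or more and 12 had 10 TPM or more, with a summed level of 7402, 6060 and 7896 TPM. After the keratins came Perp, a desmosome-associated membrane protein, at 871, 843 and 669 TPM, and the adherens junction gene Cdh1 at 208, 144 and 154 TPM. Trp63, the transcription factor of stratified epithelia, was at 134, 145 and 86.2 TPM, and the lowest member was Grhl2, a transcription factor of epithelial identity, at 6.69, 7.22 and 5.26 TPM. The 3 genes that define the sample, Amelx, Ambn and Krt14, were thus high in every pool. They belong to the definition of the sample, so their levels do not test the label of dental epithelium. Mesenchymal genes were present as well, and the odontoblast list, given below, summed to 6553, 4234 and 3269 TPM.

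The secretory ameloblast list was complete, with 10 of 10 members at a mean of 10 TPM or more. Behind the matrix genes stood Acp4, an acid phosphatase whose loss disturbs enamel, at 396, 364 and 475 TPM, and Lamb3, a chain of the laminin that anchors epithelium, at 396, 336 and 413 TPM. Mmp20, the enamelysin that cleaves the matrix proteins during secretion, was at 252, 255 and 178 TPM. Like Enam, Mmp20 was lowest in pool 3, and the ratio of Enam to Mmp20 was 15.3, 16.0 and 13.0. Fam20c, a Golgi kinase that phosphorylates secreted matrix proteins, was at 149, 113 and 135 TPM, its partner Fam20a at 118, 135 and 128 TPM, and the integrin gene Itgb6 at 26.9, 38.6 and 30.1 TPM.

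Maturation genes were present at a far lower level. The list of 6 summed to 392, 433 and 289 TPM, and Odam, a protein of the junction between maturing ameloblasts and enamel, held most of it with 320, 346 and 226 TPM. The adhesion receptor gene Adgrf4 was at 54.9, 71.8 and 35.5 TPM. Klk4, the protease that clears the matrix in maturation, was at 12.2, 9.82 and 23.0 TPM, Amtn at 3.19, 3.48 and 3.37 TPM, and Slc24a4, a calcium exchanger, stayed under 1 TPM at 0.39, 0.57 and 0.47 TPM. The secretory protease exceeded the maturation protease in every pool, with a ratio of Mmp20 to Klk4 of 20.7, 26.0 and 7.72. Pool 3 was apart from the other pools in this ratio, with the lowest Mmp20 and the highest Klk4. The part of transcript length and base composition in this ratio was not tested.

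Markers of the other layers of the enamel organ were present, although the cervical loop list rested mostly on Gli1. In the list for inner enamel epithelium and preameloblasts, Shh, a ligand made by the inner enamel epithelium and stratum intermedium, was at 121, 171 and 154 TPM, and the Notch ligand gene Jag2 was at 94.4, 148 and 104 TPM. All 5 members were above 30 TPM in every pool. In the stratum intermedium list, Alpl, the alkaline phosphatase typical of that layer, was at 315, 213 and 348 TPM, and 8 of 9 members had a mean of 1 TPM or more. Alpl is also expressed by cells that form dentine and bone. Igfbp5 led the list for outer enamel epithelium and stellate reticulum with 382, 238 and 214 TPM, and it is also made in mesenchyme. Krt15, more restricted to epithelium, was at 48.5, 27.8 and 56.0 TPM. Among progenitor markers of the cervical loop, the hedgehog target gene Gli1 was at 63.6, 106 and 74.6 TPM. Without Gli1 the mean sum of that list was 20.8 TPM in place of 102 TPM. The study's introduction counts GLI1 among the signals of the dental mesenchyme, and the part of each tissue in its level was not tested. Sox2 was at 0.57, 0.66 and 0.23 TPM and Lgr5 at 0.25, 0.53 and 0.17 TPM, both under 1 TPM in every pool.

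Markers of keratinised oral epithelium were low, with a summed level of 72.1, 66.6 and 91.4 TPM over 10 genes. Krt6a, a keratin of mucosa and wounded skin, was the highest at 31.0, 20.1 and 43.1 TPM. Of the 10 genes, 3 had a mean of 10 TPM or more, among them Krt10 at 17.0, 12.2 and 15.4 TPM. Krt13, Krt4, Krt76 and Ivl, which mark the upper layers of mucosa, had means under 1 TPM, and Krt1 was at 2.08, 4.05 and 4.56 TPM. These genes were thus far below the keratins of basal epithelium.

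Genes of the mesenchymal neighbours of the epithelium were present in all 3 pools. The odontoblast list summed to 6553, 4234 and 3269 TPM. Col1a1 and Col1a2, the chains of type I collagen, which odontoblasts, osteoblasts and fibroblasts make, held most of it with 3127, 1831 and 1795 TPM and with 1947, 1200 and 1045 TPM. The defining gene of the list, Dspp, which encodes the dentine sialophosphoprotein, was at 1302, 1083 and 352 TPM. Dspp is also expressed for a short time by young ameloblasts. Its partner in dentine and bone, Dmp1, was at 122, 75.5 and 62.2 TPM, so that every member was highest in pool 1 and lowest in pool 3. In bulk RNA, fewer cells of a type and less RNA per cell cannot be told apart.

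The bone matrix list summed to 1926, 1350 and 1140 TPM, nearly all from the 2 osteocalcin genes. Bglap2 was at 1182, 858 and 694 TPM and Bglap at 618, 409 and 392 TPM. These are near-identical neighbours and their reads may be shared between them. Osteocalcin is made by odontoblasts as well as osteoblasts. The osteoblast regulators Sp7 and Runx2 were at 22.1, 19.9 and 13.2 TPM and at 9.16, 7.17 and 4.57 TPM, and the osteocyte genes Mepe and Sost had means under 1 TPM. The widest spread was in Spp1, the gene for osteopontin, at 47.0, 20.3 and 4.81 TPM. The osteoclast proteases Ctsk, at 41.5, 17.99 and 7.34 TPM, and Mmp9, at 23.9, 7.04 and 4.01 TPM, had the same order of pools.

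Fibroblast and follicle genes were led by the proteoglycan gene Dcn at 214, 158 and 83.9 TPM and by the collagen gene Col3a1 at 155, 61.2 and 46.4 TPM. The dental papilla list of 8 transcription factors was lower, with a sum of 81.3, 55.1 and 43.5 TPM. Its leading gene Barx1, which marks molar mesenchyme, was at 32.0, 20.6 and 19.7 TPM, and Pax9 was at 1.49, 1.09 and 0.53 TPM.

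**Figure D2:**
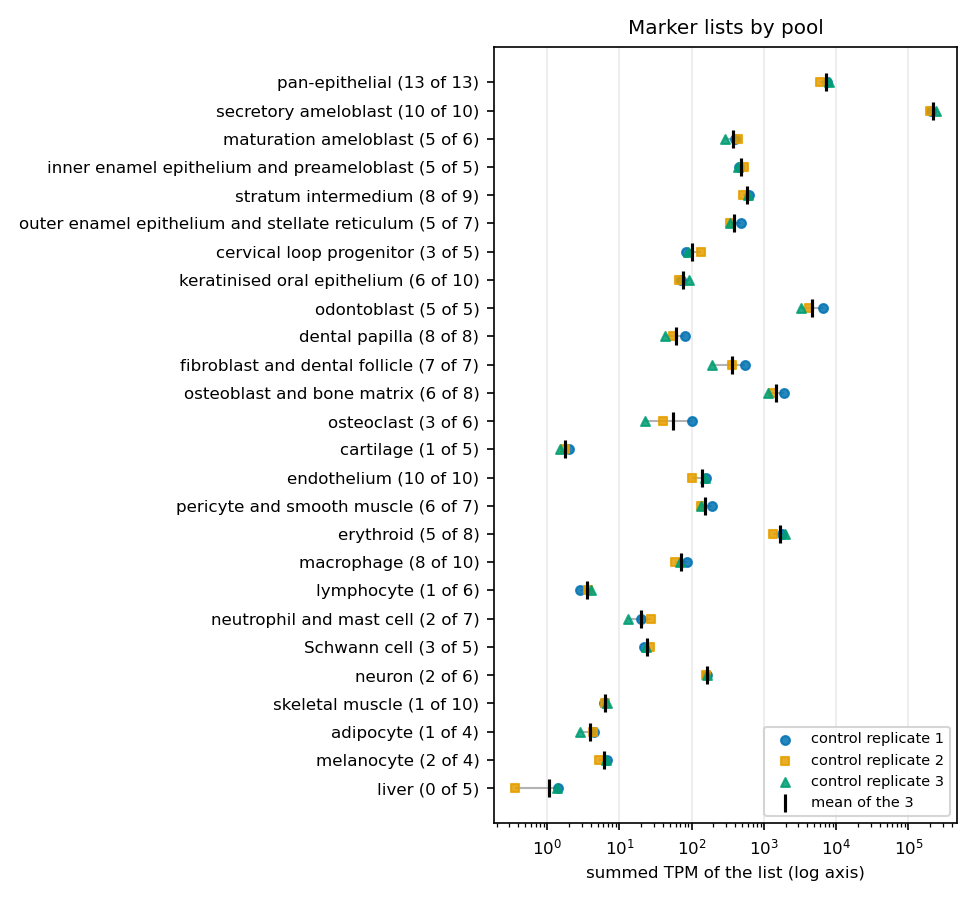
Summed TPM of 26 marker lists in the 3 control pools, on a log axis, with 1 symbol for each pool and a black bar at the mean; the numbers in brackets give the members with a mean of 1 TPM or more and the members listed. The secretory ameloblast list, at 200874 to 240273 TPM, stands above every other list, and cartilage, lymphocyte, muscle, adipocyte, melanocyte and liver lists are below 10 TPM.

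Markers of blood vessels and blood cells were present in all 3 pools. All 10 endothelial genes were above 3 TPM in every pool, led by the vascular cadherin Cdh5 at 29.8, 16.3 and 25.4 TPM, and the list summed to 160, 100.4 and 152 TPM. The haemoglobin genes made up nearly all of the erythroid sum of 1762, 1328 and 1979 TPM, with Hba-a2 at 698, 439 and 814 TPM and Hbb-bs at 625, 579 and 718 TPM. Hba-a2 and Hba-a1 share their coding sequence almost entirely, so the split between them is uncertain. The complement genes C1qa, C1qb and C1qc of tissue macrophages were between 4.51 and 11.04 TPM, and the leukocyte gene Ptprc was at 0.43, 0.50 and 0.20 TPM.

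Several compartments were at or near the floor of the table. The skeletal muscle list summed to 6.11, 6.30 and 6.84 TPM with 1 of 10 members above 1 TPM, and the cartilage list to 2.02, 1.77 and 1.52 TPM with Matn1 listed at 0 throughout. Among lymphocyte genes Cd3g was at 2.46, 3.13 and 3.84 TPM while its complex partner Cd3e was at 0, 0.18 and 0.12 TPM. In the neutrophil and mast cell list, S100a9, a calcium-binding protein also made by stressed epithelium, was at 10.9, 16.4 and 6.64 TPM and Ly6g was listed at 0. In the melanocyte list, the pigment enzyme gene Dct was at 4.75, 3.70 and 5.33 TPM and Mlana was listed at 0. The liver list had no member with a mean of 1 TPM, and its member Fgb was listed at 0. In the neuron list the tubulin gene Tubb3 was at 106, 96.5 and 108 TPM and Stmn2, a tubulin-binding protein, at 58.2, 58.4 and 53.4 TPM. The other 4 members, among them the synaptic genes Snap25 and Syt1 and the neurofilament gene Nefl, had means under 1 TPM. Proliferation genes were expressed at a moderate level, with 19 of 19 members of the cell cycle list at a mean of 1 TPM or more, Pcna of the replication fork highest at 62.4, 65.1 and 40.3 TPM and the cycling-cell marker Mki67 at 15.8, 19.8 and 3.39 TPM.

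Of 46 transcription factors in a list of tooth and secretory-cell regulators, 44 had a mean of 1 TPM or more. Sp6, also named epiprofin, whose loss stops ameloblast differentiation, was the highest at 443, 457 and 524 TPM. Xbp1, which expands the secretory apparatus, was at 175, 189 and 210 TPM. Sp6 stood above every other listed factor in each of the 3 pools. Also among the highest were Id1, an inhibitor of helix-loop-helix factors, at 192, 221 and 147 TPM, Dlx3 at 168, 140 and 156 TPM and the chromatin organiser Satb1 at 166, 189 and 95.04 TPM. Id3, Trp63, Atf4 and Dlx5 followed, with means between 104 and 138 TPM. All 6 Dlx genes, homeobox factors of the jaw and teeth, were above 18 TPM in every pool and summed to 458, 457 and 430 TPM. Sox2 and Gata3 were the members under 1 TPM.

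Of 79 secreted or membrane-bound ligands listed, 50 had a mean of 1 TPM or more and 5 were listed at 0 in every pool, namely Wnt1, Wnt8a, Fgf4, Fgf8 and Fgf15. Mdk, the growth factor midkine, was highest with 339, 227 and 292 TPM. Wnt6 was at 227, 215 and 213 TPM, Shh and Jag2 stood where they were given above, Tgfb1 was at 110, 82.9 and 121 TPM and Ptn, the relative of midkine, at 112, 109 and 68.9 TPM. Bmp4, Igf2, Wnt10a and Jag1 completed the 10 highest. Igf2 varied most of these, with 114, 62.5 and 43.7 TPM in the same order of pools as the mesenchymal genes.

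All 19 Wnt genes were in the ligand list. Together they stood at 491, 467 and 510 TPM, 12 had a mean of 1 TPM or more and 8 of 10 TPM or more. Wnt6 led the family in every pool. Wnt10a, the floxed gene, was at 56.0, 51.2 and 57.9 TPM, the second Wnt gene by mean and 1.13-fold from the lowest to the highest pool. Wnt4 at 53.2, 45.8 and 59.6 TPM and Wnt3a at 39.2, 44.5 and 51.8 TPM were its neighbours in the order. Wnt10a and Wnt4 overlapped over the pools and their order is not settled. The study's introduction describes the epithelial Wnt10a signal as weaker than that of the odontoblasts beside it. Odontoblast genes were present in every pool, and the part of each tissue in the Wnt10a level was not tested. Wnt10b, the closest relative of Wnt10a, was at 2.58, 2.90 and 2.52 TPM. The 11 fibroblast growth factor genes in the ligand list were nearly silent by contrast, and 2 of them had a mean of 1 TPM or more. The 11 summed to 19.2, 25.8 and 19.2 TPM, most of it from Fgf1. Members of that family outside the list were not examined.

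**Figure D3:**
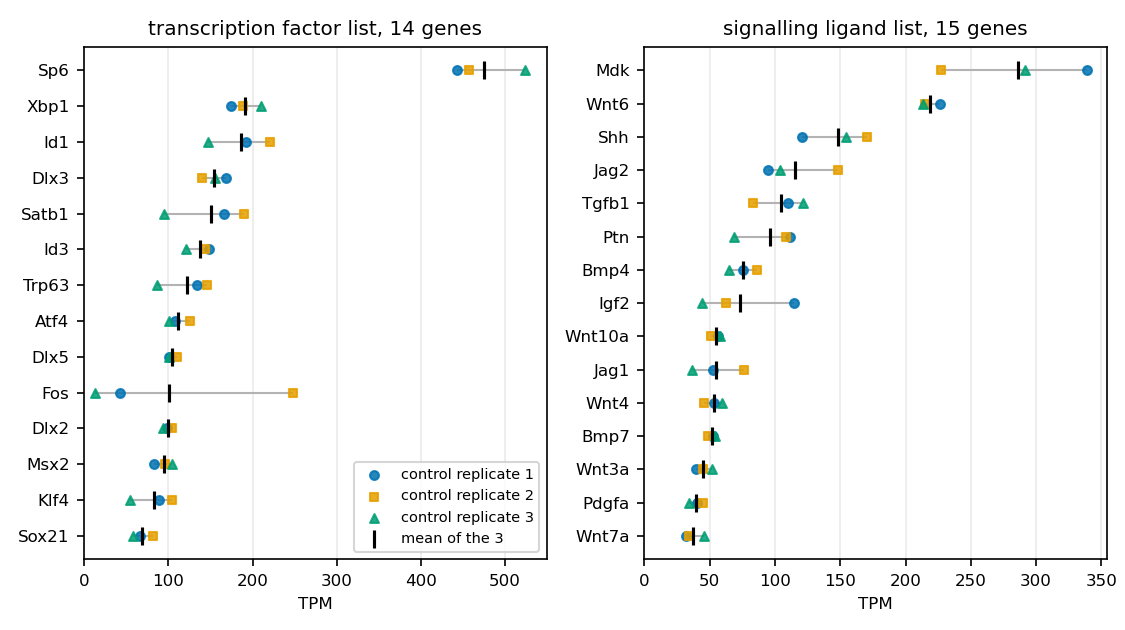
TPM of high members of the transcription factor list (left, 14 genes) and of the 15 highest members of the signalling ligand list (right) in the 3 control pools, on linear axes that start at 0, with 1 symbol for each pool and a black bar at the mean. Sp6 stands above the other factors in every pool at 443 to 524 TPM, and Fos spans the widest range, from 12.7 to 248 TPM.

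The pools were compared on log2(TPM + 1) over the 13776 genes with a mean of 1 TPM or more. Across genes, which are not independent replicates, Pearson's r was 0.94 between pools 1 and 2, 0.95 between pools 1 and 3 and 0.91 between pools 2 and 3. Spearman's rho was 0.94, 0.94 and 0.90 in the same order. The median absolute difference was 0.29, 0.32 and 0.48 on the log2 scale, and 92.5%, 91.9% and 79.1% of genes lay within 2-fold. Pool 1 was the middle pool by each measure, and pools 2 and 3 were farthest apart. In all 3 pools together 10509 genes, or 76.3%, stayed within 2-fold. The median coefficient of variation was 24.1% over all compared genes. It was 15.7% at a mean of 100 TPM or more and 31.9% among the 6276 genes with means from 1 to 10 TPM. Of the 10 highest genes of a pool, 7 were shared by all 3, and of the 100 highest 84 were.

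The differences went with the length and base composition of the transcripts. Protein-coding genes were divided into 10 bins of equal size by the length of their longest transcript. In the shortest bin, with a median length of 1053 bases, the median deviation from the gene mean was 0.02, -0.09 and 0.07 in pools 1, 2 and 3. In the longest bin, with a median of 8244 bases, it was 0.09, 0.38 and -0.47. Long transcripts were therefore high in pool 2 and low in pool 3, and the trend was steady over the bins between. Over the 12255 coding genes, Spearman's rho of the deviation with length was 0.08, 0.41 and -0.45 and with GC content -0.18, -0.50 and 0.59. Over all genes compared the median deviation was 0.04, 0.15 and -0.19. After each pool's deviation had been corrected for length and GC content, 12212 of 13764 genes, or 88.7%, stayed within 2-fold in all 3 pools. What set these trends was not tested, and RNA quality values were not among the data used here.

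**Figure D4:**
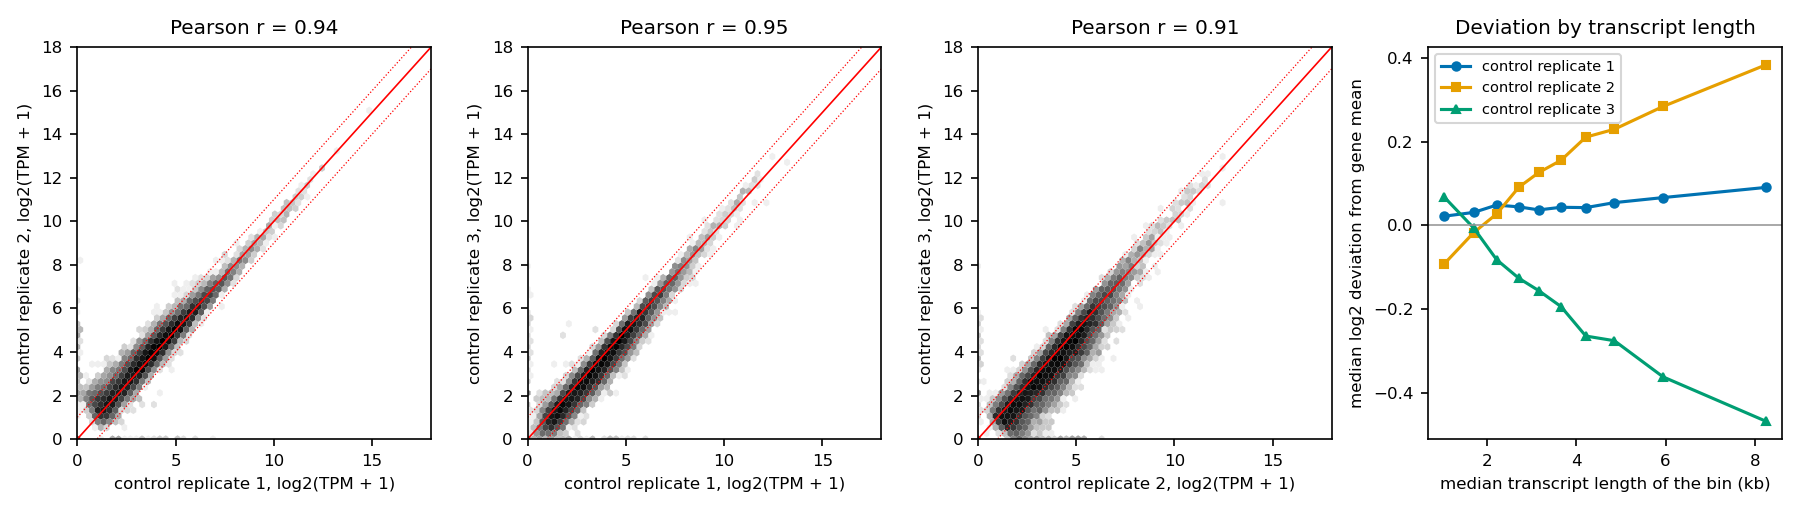
The 3 left panels plot log2(TPM + 1) of 13776 genes in each pair of control pools, with darker hexagons for more genes on a log scale, a solid line at equality and dotted lines at 2-fold. The right panel plots the median log2 deviation from the gene mean against transcript length for 10 bins of coding genes, with pool 2 reaching 0.38 and pool 3 reaching -0.47 in the longest bin.

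Marker lists of tissue compartments differed between pools as well. The lists of odontoblast, papilla, follicle, bone matrix and osteoclast genes held 29 genes with a mean of 1 TPM or more. Of these, 27 were highest in pool 1 and 27 were lowest in pool 3, where 26.7% and 60.2% of all genes were. Their median deviation was 0.53, 0.06 and -0.46, and after the length and GC correction 0.53, -0.17 and -0.38. After it, 28 of the 29 were highest in pool 1, where 28.5% of all genes were, while 21 were lowest in pool 3 and 8 in pool 2, where 31.6% and 42.8% of all genes were. The summed level of these lists was 9204, 6040 and 4665 TPM.

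The lists of endothelial, pericyte, erythroid and macrophage genes had another order. Of 29 genes with a mean of 1 TPM or more, 25 were lowest in pool 2, where 22.8% of all genes were, and none was highest there. Their median deviation was 0.26, -0.38 and 0.08. After the correction all 29 were lowest in pool 2, where 42.8% of all genes were. Vessel and blood markers thus did not follow the mesenchymal markers, since pool 3 was the lowest pool for the second and not for the first.

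For the 49 enamel organ markers with a mean of 1 TPM or more, the median deviation was 0.04, 0.04 and -0.01. The highest value fell in pool 1 for 22.4%, in pool 2 for 42.9% and in pool 3 for 34.7% of them, against 26.7%, 54.8% and 18.5% of all genes, and 38.8% were lowest in pool 3 against 60.2% of all genes. After the correction the medians were 0.03, -0.13 and 0.08. Of the 49, 30 were then lowest in pool 2, where 42.8% of all genes were, and 6 in pool 3, where 31.6% of all genes were. Their summed level was 216859, 208889 and 249928 TPM, which Amelx dominated. The part that the amount of neighbouring tissue in each pool had in the gene levels above was not tested.

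**Figure D5:**
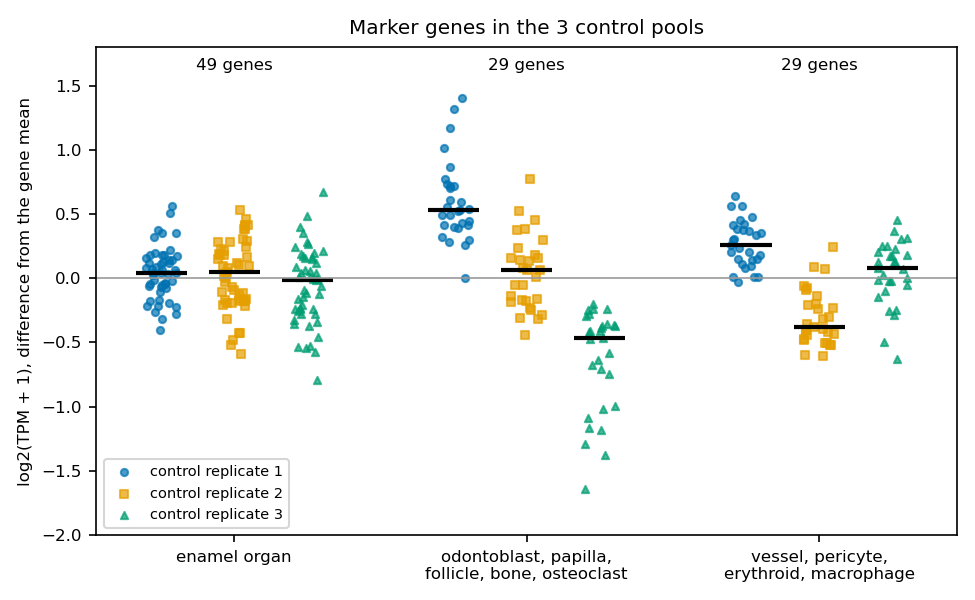
Difference of log2(TPM + 1) from the gene mean for marker genes with a mean of 1 TPM or more, with 1 symbol for each gene, grouped by compartment and pool, and black bars at the medians. The 29 mesenchymal and bone genes descend from pool 1 (median 0.53) to pool 3 (-0.46), and the 29 vessel and blood genes are lowest in pool 2 (-0.38).

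The genes that varied most between pools, by the SD of log2(TPM + 1) among 7179 coding genes with a mean of 10 TPM or more, were of several kinds. Gm21961 was at 0, 79.3 and 0 TPM and has a transcript of 114 bases. Gm47283, annotated near the end of chromosome Y, was at 57.8, 80.8 and 0.48 TPM, and its position alone does not make it a marker of sex. Trim30d, of an antiviral gene family, was at 0.04, 6.17 and 27.4 TPM. How reads were assigned to such models was not tested. In Erdr1, AL731706.2 and Gm15446 the highest pool exceeded the lowest 24.3-fold, 21.9-fold and 27.3-fold. The remaining 4 were Fos, an immediate early transcription factor, at 42.1, 248 and 12.7 TPM, the collagenase gene Mmp13, made by hypertrophic cartilage and bone cells, at 19.9, 10.02 and 0.46 TPM, the splicing factor gene Srek1 at 22.7, 98.0 and 6.08 TPM, and the chromatin remodeller Atrx at 30.3, 77.2 and 7.06 TPM. Mmp13 had the order of the mesenchymal genes, and Fos, Srek1 and Atrx were high in pool 2 and low in pool 3. Of the 100 most variable coding genes, 92 were highest in pool 2 and 96 lowest in pool 3, against 54.8% and 60.2% of all genes compared.

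Among 903 coding genes with a mean of 100 TPM or more the steadiest was Atpif1, the inhibitor of the mitochondrial ATP synthase, at 407, 405 and 406 TPM. It was followed by Rexo2, an exonuclease of mitochondrial RNA, at 208, 208 and 207 TPM and Timm23, a channel of mitochondrial protein import, at 127, 129 and 127 TPM. Rps27a and the nucleoside diphosphate kinase gene Nme1 completed the 5, with 1.02-fold between the highest and the lowest pool each. Of the 3 enamel matrix genes Ambn came closest to this, with an SD of 0.04 on the log2 scale against a median of 0.22 among these genes.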

How the data were processed

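The authors extracted total RNA and made libraries with a TruSeq kit. Their methods name SeqPrep and Sickle for trimming, HISAT2 for alignment and RSEM for abundance, and the submitters' processing notes name HISAT2 and StringTie. The deposited unit is TPM, since the control libraries sum to 993946, 991506 and 989656, although the methods name FPKM. The genome build is not given in the sources used here. Of 55487 gene identifiers, 99.5% matched GENCODE annotation of GRCm38, the source of gene types, positions, lengths and GC content.

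Groups and replicate numbers came from the sample titles. Shares are percentages of a library's summed TPM. Agreement was computed on log2(TPM + 1), with a pseudocount of 1 TPM, for genes averaging 1 TPM or more. The correction for length and GC content of the longest transcript used splines with 4 degrees of freedom (patsy 1.0.2, pandas 2.3.3, scipy 1.17.1). It was tested on simulated data with a planted trend in length but none in GC content, so its GC part was not tested. No statistical test was made. Depth cannot be read from TPM, and precision is limited by there being 3 pools.

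The lists and genes were chosen with earlier results of these data known. Named genes are the 30 highest, the highest and absent members of each marker list, the 10 highest transcription factors and ligands, the 10 most and 5 least variable coding genes, Wnt10a and Krt14. Other members of the lists, Arhgap6, the genes of the chromosome 5 run, mitochondrial genes below the 30 highest, Krt17, Krt8, Krt18 and the genes under the other observations were picked after their values had been seen. Alternatives tried were other denominators, medians, rescaling, pseudocounts, filters, normalization and leaving out each pool. Some genes that the rule would name are not reported here.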

Additional observations from a re-analysis of the deposited data

How the results depend on the processing

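Over shares, sums, gene counts and agreement measures, 33 of 96 alternatives other than leaving out a pool stayed within a set limit, and 63 moved. The limit was the SD over the pools for shares and sums and the SD over the pairs of pools for agreement measures. For the count of genes that hold 50% of the TPM it was 1.5-fold. Among protein-coding genes without Amelx and Ambn, 211 genes held 50% of the TPM in place of 84. On rescaling to those genes, list sums grew 1.43-fold to 1.45-fold by construction, to 10309 TPM (pan-epithelial) and 6743 TPM (odontoblast). Without its highest member the pan-epithelial sum was 4140 TPM and the odontoblast sum 2435 TPM, and 26 of 30 list sums moved in this way. Leaving out pool 1 took the osteoclast sum from 54.6 to 31.7 TPM, and no other list sum moved by over 1.5 times when a pool was left out.

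The mean Pearson's r of 0.93 became 0.89 with a pseudocount of 0.1, 0.97 without a filter on low values, 0.90 at a mean of 10 TPM or more and 0.96 in protein-coding genes alone. Without a filter the mean of the median absolute differences was 0.23 and 85.2% of genes were within 2-fold in every pool. The correction for length and GC content, added after the data had been seen, gave 88.7%. Leaving out each pool left a single pair, so the values repeated those of the pairs given above. They were an r of 0.91 to 0.95, a median absolute difference of 0.29 to 0.48 and 79.1% to 92.5% within 2-fold. The pair of pools 2 and 3 was at the poor end. A share within 2-fold in a pair is not comparable with the 76.3% over all 3 pools. The causes were not tested beyond what each alternative does by construction. No paired analysis was possible because a single group was described. Only 3 pools and the unknown depth limit all values, low genes above all.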

Other observations

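Immediate early genes, which cells switch on within minutes of a stimulus, were all highest in pool 2. The 10 genes, chosen after their first members had been seen, summed to 212 TPM in pool 1, 660 TPM in pool 2 and 117 TPM in pool 3, and all 10 were lowest in pool 3. Of all genes compared, 54.8% were highest in pool 2 and 60.2% lowest in pool 3, so this is also the commonest order in the table. Egr1 was at 34.9, 115 and 11.1 TPM, Dusp1 at 22.2, 70.4 and 11.3 TPM and Fosb at 1.51, 19.9 and 0.45 TPM. The same order was found for 4 long non-coding RNAs that stay in the nucleus or near their locus, with Malat1 at 52.3, 320 and 16.0 TPM, Neat1 at 11.2, 49.7 and 9.99 TPM and Meg3 at 32.4, 109 and 18.9 TPM. The longest transcripts of the 10 immediate early genes had from 1522 bases (Ier2) to 4484 bases (Egr1). Those of the 4 non-coding RNAs had from 6983 bases (Malat1) to 93092 bases (Kcnq1ot1). Pool 2 was high for long transcripts in general, and the part of transcript length in this order was not tested.

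RNA of both sexes was present in each pool. The Y-linked genes Eif2s3y, at 20.7, 28.9 and 10.9 TPM, and Ddx3y, at 11, 16.3 and 5.97 TPM, and the X-inactivation RNA Xist, at 53.0, 127 and 8.07 TPM, were above 0 in all 3 pools. All were highest in pool 2 and lowest in pool 3, but Xist varied 15.7-fold, against 2.65-fold for Eif2s3y and 2.73-fold for Ddx3y. The longest transcript of Xist has 17946 bases, and long transcripts were high in pool 2 and low in pool 3 in general. The part of length was not tested, so the ratio of male to female material was not read from these levels.

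Among high coding genes outside the lists, Gphn, the gene for the synaptic scaffold gephyrin, was at 1330, 1649 and 4037 TPM and Cmss1, a little-studied nuclear protein gene, at 1431, 1907 and 3205 TPM. How reads were assigned to Gphn and Cmss1 was not tested. The calcium-binding protein gene Calb1, long known from ameloblasts, was at 1390, 1431 and 691 TPM, Ctnnb1, the beta-catenin gene of cell adhesion and Wnt signalling, at 1100, 1164 and 830 TPM, and the gap junction gene Gja1 at 904, 866 and 618 TPM.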
